A study of Mus musculus with 2 samples.

Results

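The Dlk1-Dio3 domain of mouse chromosome 12 is an imprinted locus that holds one of the largest groups of miRNA genes in the genome. Here 39 mature miRNAs of this locus were followed, out of 1141 mouse miRNA probes on each array. They were taken by name: each probe whose reporter name was one of the 39 listed miRNAs was used, whatever its signal. The 39 probes came from 32 of the 61 miRNA genes that RefSeq (assembly GRCm38.p6) places between Dlk1 and Dio3, and the arrays held 78 further probes from this interval. The study compared lung of mice given monocrotaline (MCT), a plant pyrrolizidine alkaloid used to model pulmonary arterial hypertension, with untreated lung. Both lungs were labelled wild type. The MCT mice were 14 weeks old and had been on monocrotaline for 30 days. The labels used here give no age for the untreated mice, and do not say whether an RNA came from 1 animal or from a pool. Each group had 1 array, so no difference below has a replicate check and no p-value is given. The errors are standard deviations over the 3 spots that each miRNA had on an array, and cover the array measurement only.

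Genes of this domain are expressed from one parental copy. The paternal copy gives the protein-coding genes Dlk1, Rtl1 and Dio3. The maternal copy gives the long noncoding RNAs Meg3, Rian and Mirg, a run of small nucleolar RNAs, and the miRNAs, which are cut from these noncoding transcripts. A first group of miRNA genes lies near Meg3 and on the strand opposite Rtl1, and several of its members pair perfectly with Rtl1 mRNA and direct its cleavage. A second, longer group lies at Mirg. In mice the miRNAs of the domain are abundant in embryo, placenta and brain, and are low in most adult tissues outside the nervous system. In bulk lung RNA, fewer cells of a type and less RNA per cell cannot be told apart.

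A miRNA was called detected on an array when at least 2 of its 3 spots were brighter than the 95th percentile of the 257 empty spots of that array. Of the 39 miRNAs, 6 were detected in untreated lung and 4 of these also in MCT lung. The mature sequences of these 6 are shown because they are the listed miRNAs with a signal above the limits. They are written 5′ to 3′ as the array files give them, with the seed, bases 2 to 8, in capitals, and mmu stands for mouse. The array sequences of 34 of the 39 were identical to the mature miRNA in RefSeq.
mmu-miR-127-3p: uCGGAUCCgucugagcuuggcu
mmu-miR-379-5p: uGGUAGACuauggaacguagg
mmu-miR-329-3p: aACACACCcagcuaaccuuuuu
mmu-miR-494-3p: uGAAACAUacacgggaaaccuc
mmu-miR-485-3p: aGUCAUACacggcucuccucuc
mmu-miR-409-3p: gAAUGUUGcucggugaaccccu

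No seed was shared among the listed miRNAs: the 39 had 39 different seeds, and 6 of these were also held by another miRNA on the array. Of the detected miRNAs, mmu-miR-379-5p shared its seed with miR-1193-5p and mmu-miR-329-3p shared its seed with miR-362-3p. Neither of these partners was detected on either array. The median GC content of the 39 was 45.5%, with a range from 23.8% to 68.2%, against a median of 50% for all miRNA probes.

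The share of the listed miRNAs that was detected lay below that of the whole array. In untreated lung it was 15.4%, against 35.3% of all 1141 miRNA probes, of which 403 were detected. In MCT lung it was 10.3%, against 27.7%, or 316 probes. The other 78 probes of the locus gave 13 detected in untreated lung (16.7%) and 5 in MCT lung (6.41%). The remaining 33 of the 39 were detected on neither array.

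The arrays differed in their background, which bears on every detection call. The empty spots had a median intensity of 100.7 on the untreated array and of 253 on the MCT array, and the limits of detection were 116 and 284. On the MCT array the median of all miRNA spots was 226, below that of the empty spots. The share of a difference in detection that this background accounts for was not tested. A limit built from the dimmest miRNA spots instead left 6 of the 39 detected in untreated lung (37.1% of all miRNAs) and gave 14 in MCT lung (46.0%). A limit from neighbouring spots, chosen after the data were seen, gave 4 of the 39 on each array (28.1% and 30.1% of all miRNAs): mmu-miR-127-3p, mmu-miR-379-5p, mmu-miR-485-3p and mmu-miR-494-3p.

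**Figure D1:**
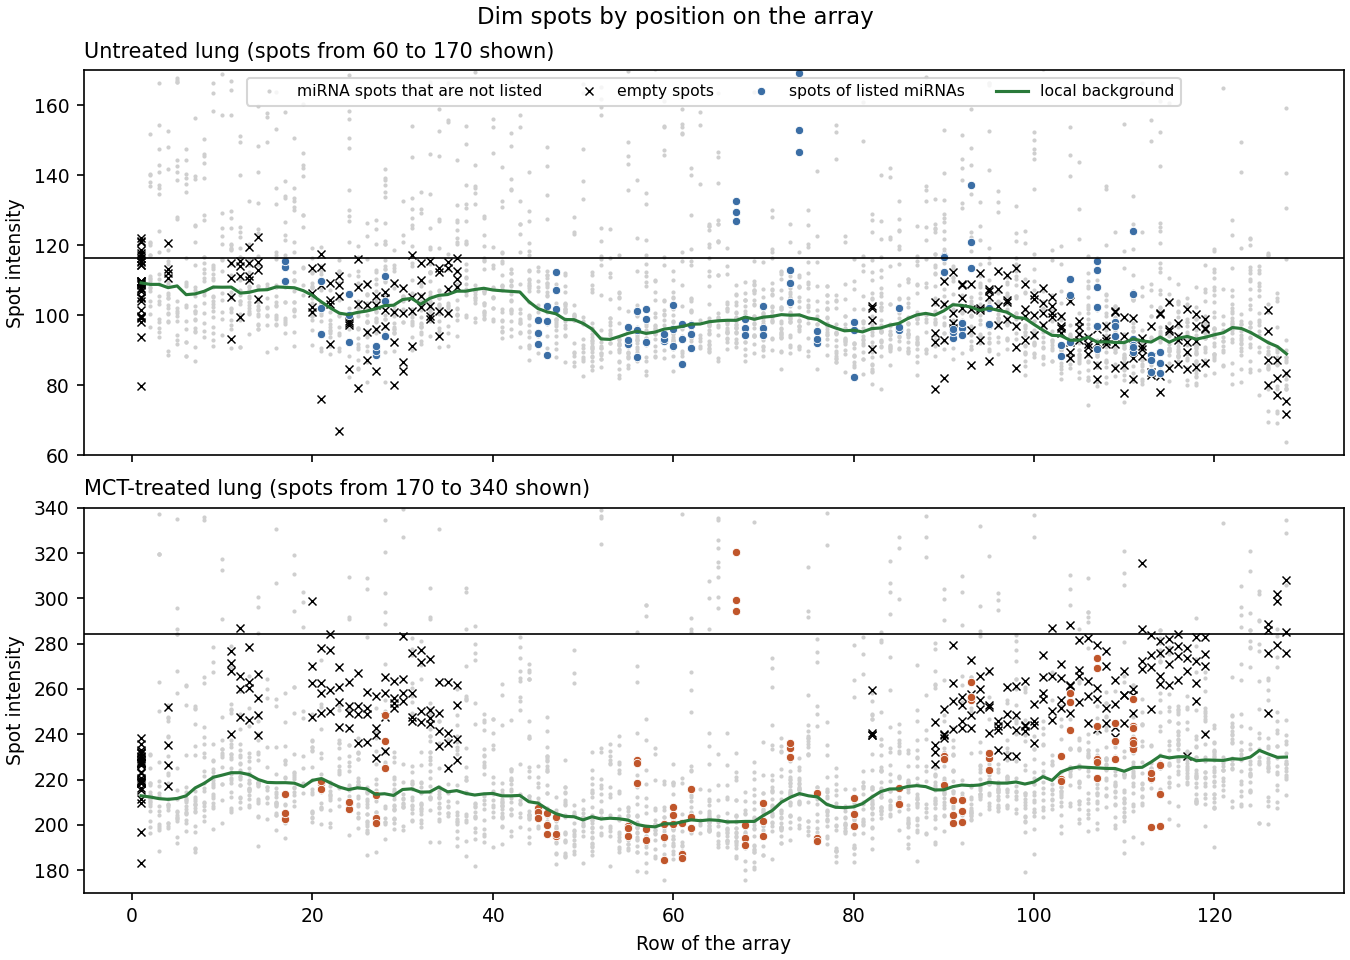
Spot intensity against the row of the spot on each array, for empty spots, spots of the listed miRNAs and other miRNA spots in the dim range, with the local background as a line. The empty spots have a median of 253 on the MCT array, where the median of all miRNA spots is 226, and of 100.7 on the untreated array, where it is 105.

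**Figure D2:**
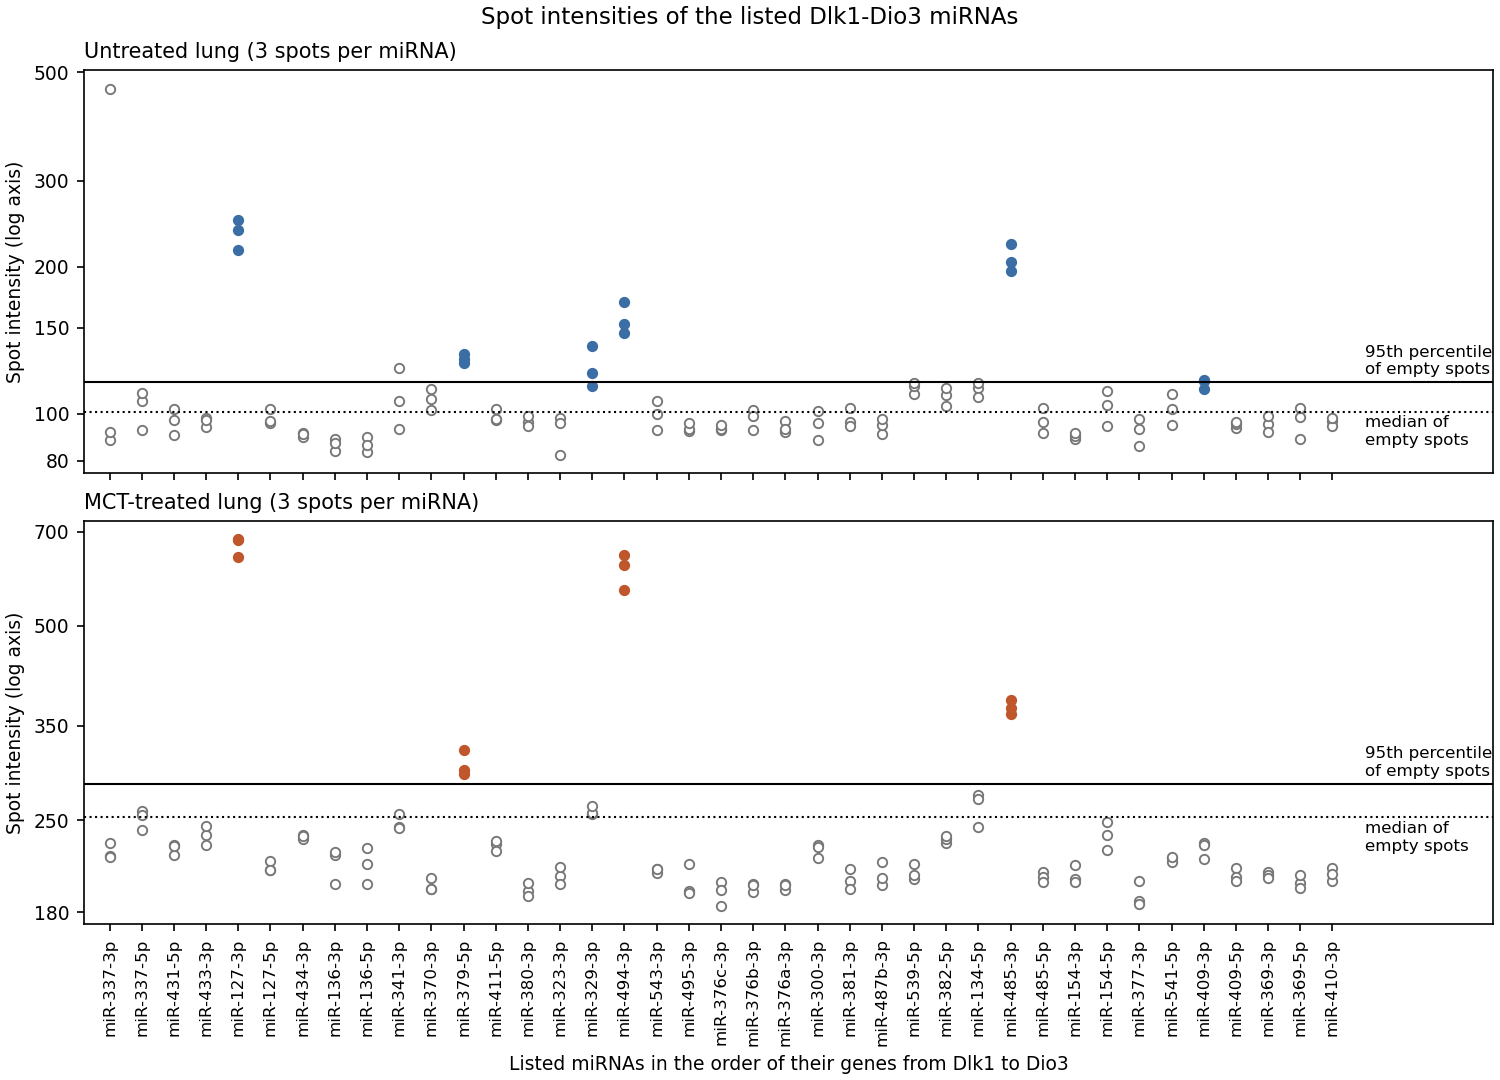
Intensity of the 3 spots of each of the 39 miRNAs on the untreated and the MCT array, on log axes, with the limits of detection (116 and 284) and the medians of the empty spots as lines and detected miRNAs in colour. The miRNAs in colour in both lungs are mmu-miR-127-3p, mmu-miR-379-5p, mmu-miR-485-3p and mmu-miR-494-3p.

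The group near Meg3 and opposite Rtl1 held 9 of the listed miRNAs, and 1 of them (11.1%) was detected, on both arrays. Over all miRNA probes 35.3% were detected in untreated lung and 27.7% in MCT lung. The 1 detected in this group was mmu-miR-127-3p, one of the miRNAs known to cut Rtl1 mRNA in mouse. Its spots read 249, 216 and 238 in untreated lung and 639, 680 and 679 in MCT lung, so all 6 spots were above their limits. The opposite arm of its hairpin, miR-127-5p, was detected on neither array. The other miRNAs of this group, miR-337, miR-431, miR-433, miR-434 and miR-136, did not count as detected. The spots of mmu-miR-434-3p read 89.5, 91.4 and 90.8 in untreated lung, and 234, 237 and 236 in MCT lung. Those of mmu-miR-433-3p read 98.1, 94.0 and 96.8 in untreated lung, and 237, 229 and 245 in MCT lung. Neither miRNA had a spot above the limit. The mean of miR-431-5p was 96.5 in untreated lung and 226 in MCT lung. The arms of miR-136 were dimmer still than the empty spots, at 86.4 (3p) and 86.5 (5p) in untreated lung and 214 and 213 in MCT lung. The stretch at Rian held 2 listed miRNAs, miR-341-3p and miR-370-3p, and neither was detected. The mean of miR-370-3p was 107 in untreated lung and 198 in MCT lung.

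The group at Mirg held 28 of the listed miRNAs, of which 5 were detected in untreated lung (17.9%) and 3 in MCT lung (10.7%). The shares of all miRNA probes were 35.3% and 27.7%. The spots of mmu-miR-379-5p, the miRNA that gives the miR-379/miR-410 cluster its name, read 127, 133 and 129 in untreated lung and 294, 299 and 321 in MCT lung. All 6 were above the limits by a small margin. The spots of mmu-miR-494-3p read 169, 147 and 153 in untreated lung, and 643, 568 and 622 in MCT lung. Those of mmu-miR-485-3p read 195, 204 and 222 in untreated lung, and 384, 366 and 373 in MCT lung. Both miRNAs had every spot above the limit on both arrays.

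The remaining pair passed in untreated lung alone, each with 2 of 3 spots. The spots of mmu-miR-329-3p, which acts on dendrites of rodent neurons, read 114, 137 and 121 in untreated lung and 255, 257 and 263 in MCT lung. Those of mmu-miR-409-3p read 112, 117 and 117 in untreated lung and 230, 229 and 217 in MCT lung. For these 2, the limit on the MCT array allowed no fold to be stated. Their detection rests on small margins: the second-highest spot of mmu-miR-409-3p was 116.6 against the limit of 116.2, and that of mmu-miR-329-3p was 121. Just outside the limit, the second-highest spot was 114 for miR-539-5p, 113 for mmu-miR-134-5p and 109 for miR-382-5p. On the MCT array the second-highest spot nearest to the limit from inside was 299, that of mmu-miR-379-5p. The nearest miRNA outside was mmu-miR-134-5p, which regulates dendritic spine size in rodent neurons, with a second-highest spot of 269.

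In untreated lung the spots of the 33 undetected miRNAs had a median of 96.2, and 9 of the 33 had a mean above the median of the empty spots. Over the whole array this held for 276 of 738 undetected miRNAs. In MCT lung the spots of the 35 undetected ran from 184 to 274 with a median of 211, and 2 of the 35 had a mean above the median of the empty spots. Over the whole array this held for 67 of 825. The miR-376 family, known in brain for A-to-I editing of its seeds, had means of 93.8 (miR-376a-3p), 97.8 (miR-376b-3p) and 93.5 (miR-376c-3p) in untreated lung, all below the median of the empty spots. In MCT lung these were 198, 197 and 193. The mean of miR-154-5p, a miRNA studied in human lung fibrosis, was 103 in untreated lung and 237 in MCT lung. That of miR-410-3p, the last listed miRNA in gene order, was 96.2 and 206. Whether these miRNAs were present below the limits could not be told from these arrays.

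**Figure D3:**
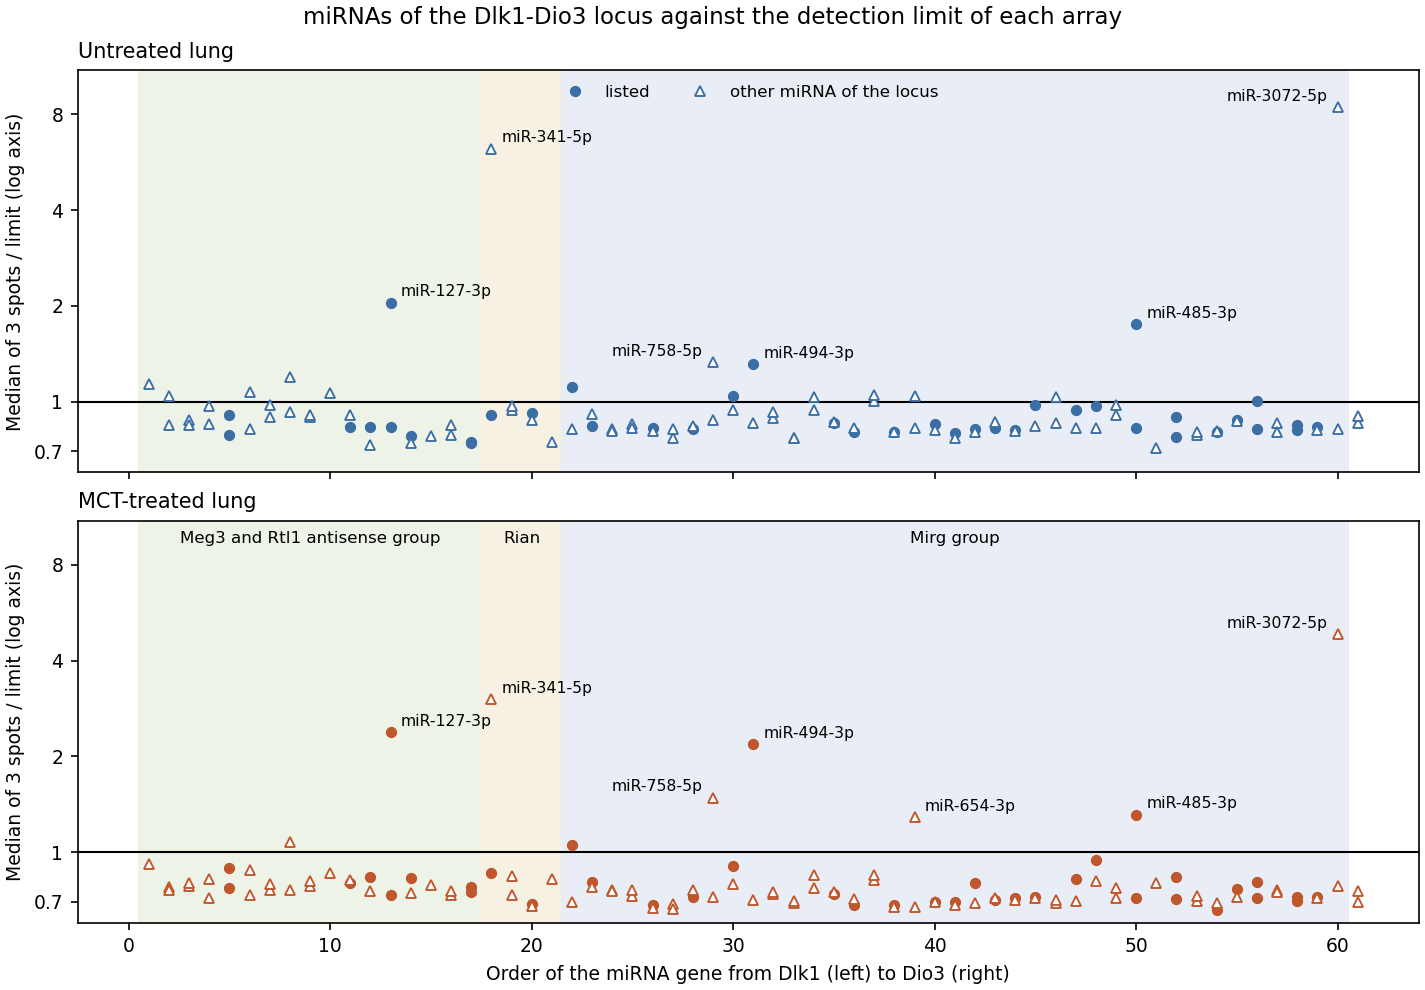
Median of the 3 spots divided by the limit of detection of the array, on log axes, for the listed and the other miRNAs of the locus in the order of their genes from Dlk1 to Dio3. In untreated lung 6 of 31 probes were detected in the Meg3 and Rtl1 group (19.4%) and 12 of 77 in the Mirg group (15.6%). In MCT lung these were 2 (6.45%) and 6 (7.79%). Over all miRNA probes the shares were 35.3% in untreated lung and 27.7% in MCT lung. The 6 include miR-1906, whose sequence is also encoded outside the interval.

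For 32 hairpins with a listed miRNA both arms were on the array, and none of these had both arms detected. In untreated lung 5 hairpins had only the 3p arm detected, 2 had only the 5p arm and 25 had neither. In MCT lung the counts were 3, 2 and 27. Over all miRNA probes 35.3% were detected in untreated lung and 27.7% in MCT lung. No count over all hairpins of the array is given, so single arms cannot be called a trait of this locus. Among the hairpins of the locus with no listed arm, that of miR-667 had both arms detected in untreated lung. The 5p arms were mmu-miR-379-5p and miR-341-5p.

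To compare MCT with untreated lung, the intensities were background-corrected, put on a log2 scale and quantile-normalized. A miRNA counted as higher or lower when it was detected on either array, differed at least 2-fold and had spots that did not overlap. Of the 39, 33 were detected on neither array and could not meet this rule. None of the other 6 met it in either direction. Over all 409 miRNAs detected on either array, 17 were higher (4.16%) and 9 were lower (2.20%), together 6.36%. With only 6 miRNAs, a count of 0 cannot be set apart from that share. The median log2 ratio of MCT over untreated was 0.15 for the 4 listed miRNAs detected on both arrays, and 0.023 for all 310 detected on both. Over the 6 detected on either array it was 0.035, a value that rests in part on mmu-miR-329-3p and mmu-miR-409-3p, which were below the limit in MCT lung, and it was -0.044 for all 409. The spots did not overlap between the arrays for 4 of the 6, against 69.7% of the 409.

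With these settings the largest difference among the 4 detected on both arrays was that of mmu-miR-494-3p. Its log2 level was 7.44 ± 0.19 in untreated lung and 8.31 ± 0.10 in MCT lung (SD, 3 spots). The log2 ratio was 0.87 ± 0.22, a 1.82-fold higher level in MCT lung, with no overlap between the spots. It was positive under all 16 ways of computing the ratio, from 0.68 to 1.83. It was past 2-fold with no normalization (1.83), with centring on the median (1.62) or on the 75th percentile (1.28), with scaling by the 5S RNA probes (1.61), with the empty-spot median subtracted (1.59), with local background subtracted (1.39) and with an offset of 16 (1.01). Relative to the median of all detected miRNAs it ran from 0.71 to 1.66.

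The level of mmu-miR-485-3p lay the other way. It was 8.14 ± 0.14 in untreated lung and 7.57 ± 0.035 in MCT lung on the log2 scale. The log2 ratio was -0.56 ± 0.14, or 0.677-fold, with no overlap between the spots. This direction depended on the scaling: the ratio was 0.40 with no normalization, 0.20 when the arrays were centred on their medians and 0.18 when they were scaled by the 5S RNA probes. Those scalings also moved the median of all detected miRNAs, to 0.70, 0.50 and 0.48. Relative to that median, mmu-miR-485-3p was lower in all 16 settings, by log2 values from -0.93 to -0.30. The difference between the log2 ratios of mmu-miR-494-3p and mmu-miR-485-3p, which does not depend on where the arrays are centred, was 1.43 ± 0.26, and ranged from 1.11 to 2.58 over the settings.

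The log2 ratios of mmu-miR-127-3p and mmu-miR-379-5p were smaller. That of mmu-miR-127-3p was 0.09 ± 0.15, with levels of 8.36 ± 0.14 in untreated and 8.45 ± 0.057 in MCT lung, and its normalized spots overlapped. It was 1.33 with no normalization, 1.13 centred on the median and 1.11 scaled by the 5S RNA probes, and relative to the median of all detected miRNAs it ran from 0.05 to 0.63. That of mmu-miR-379-5p was 0.22 ± 0.095 and its level in MCT lung was 7.22 ± 0.081. Relative to the median of all detected miRNAs it ran from -0.009 to 0.98. No ratio is given for mmu-miR-329-3p and mmu-miR-409-3p.

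**Figure D4:**
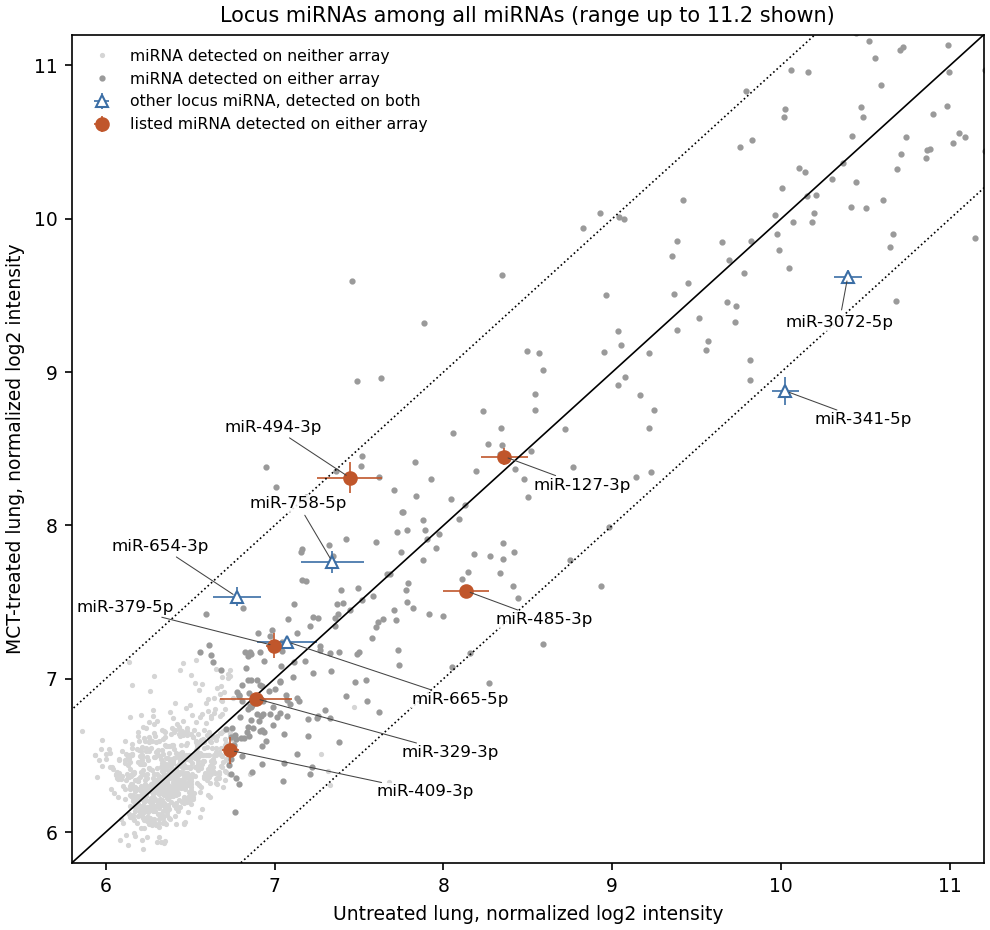
Normalized log2 intensity in MCT lung against untreated lung for all miRNAs, with the detected miRNAs of the locus marked, bars for the SD over 3 spots, a line of equal level and dotted lines at 2-fold. The 4 listed miRNAs detected on both arrays lie between the dotted lines, and the MCT values of mmu-miR-329-3p and mmu-miR-409-3p are below the limit.

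**Figure D5:**
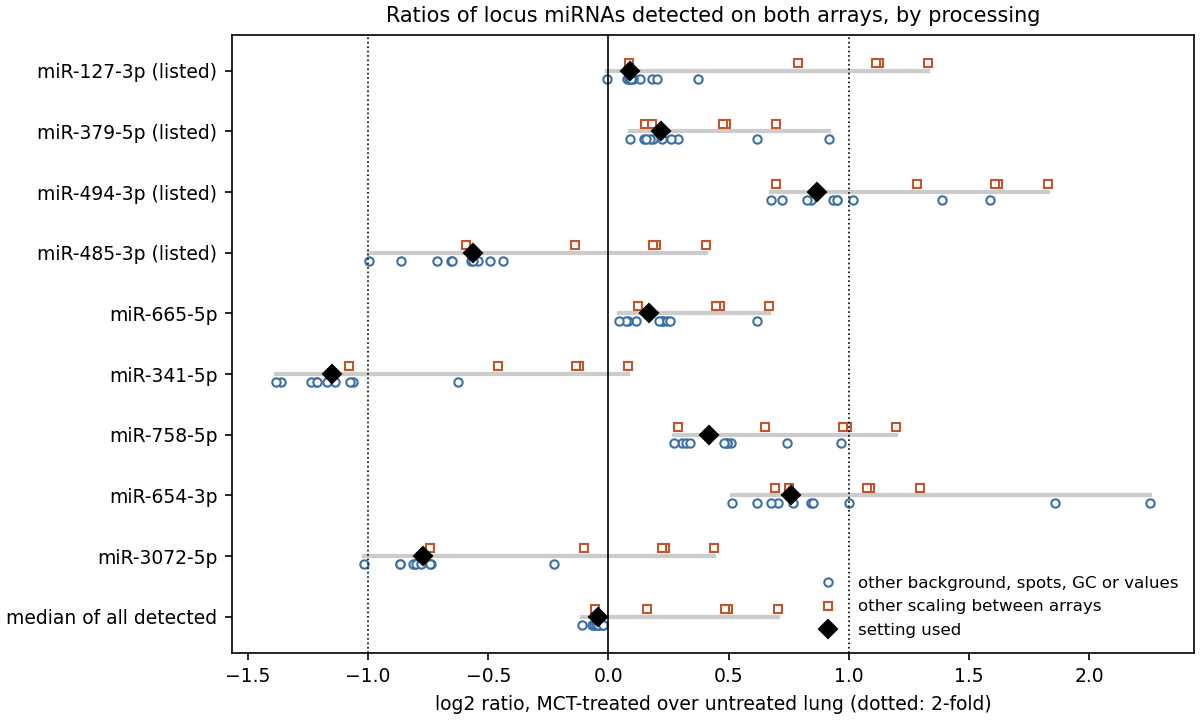
Log2 ratio of MCT over untreated lung for the 4 listed and 5 other miRNAs of the locus detected on both arrays, under each of the 16 settings, with the setting used as a diamond. The ratio of mmu-miR-494-3p is above 0 in every setting, whereas that of mmu-miR-485-3p runs from -0.996 to 0.40.

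Of the 78 other probes of the locus, 5 were detected on both arrays. Their sequences are shown because they are the other probes of the locus with a signal above the limits in both lungs.
mmu-miR-341-5p: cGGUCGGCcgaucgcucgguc
mmu-miR-3072-5p: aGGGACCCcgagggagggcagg
mmu-miR-758-5p: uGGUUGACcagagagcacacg
mmu-miR-654-3p: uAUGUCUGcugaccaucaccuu
mmu-miR-665-5p: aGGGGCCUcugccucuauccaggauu

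The listed mmu-miR-134-5p and miR-758-5p share a run of 13 bases, here in capitals, and the part of cross-hybridisation in their signals was not tested.
mmu-miR-758-5p: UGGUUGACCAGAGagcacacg
mmu-miR-134-5p: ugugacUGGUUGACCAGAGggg

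The spots of miR-758-5p read 138, 154 and 158 in untreated lung and 447, 407 and 422 in MCT lung, and its log2 ratio was 0.42 ± 0.20. Those of miR-654-3p read 121, 109 and 123, and then 379, 367 and 353, with a log2 ratio of 0.76 ± 0.15 that ran from 0.51 to 2.25 over the settings. Those of miR-665-5p gave a ratio of 0.17 ± 0.18. Both miR-3072-5p and miR-341-5p were brighter than any listed miRNA. Their means were 950 and 705 in untreated lung, and 1387 and 852 in MCT lung. Those of mmu-miR-127-3p, the brightest listed miRNA, were 234 and 666. For miR-3072-5p, with a GC content of 77.3%, the ratio was -0.77 ± 0.094, and -0.23 after the dependence on GC content was taken out. For miR-341-5p, with a GC content of 76.2%, the corresponding values were -1.15 ± 0.12 and -0.62. Of the 78 probes, 13 were detected on either array and could be called. With the settings used, miR-341-5p was the 1 of these that counted as lower, and none counted as higher. Over all 409 miRNAs detected on either array, 2.20% counted as lower and 4.16% as higher. Without normalization the ratio was 0.44 for miR-3072-5p and 0.08 for miR-341-5p. Another 8 probes of the locus passed in untreated lung alone: miR-1906, miR-770-3p, miR-3544-3p, miR-3070b-3p, miR-666-3p, miR-667-3p, miR-667-5p and miR-544-5p. None of these passed the limit from neighbouring spots. The sequence of miR-1906 is also encoded by a gene outside the interval. Its signal, counted here with the locus, therefore cannot be assigned to it.

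The tissue label was checked against miRNAs that mark cell types. Of the endothelial pair, miR-126-3p was detected in both lungs and miR-126-5p in untreated lung alone. All 5 smooth muscle and fibroblast markers were detected in both lungs, with a median normalized log2 ratio of 0.28 and a ratio of -0.28 for miR-214-3p. Their summed intensity, not corrected for the background or scale of the arrays, was 47752 in untreated and 77001 in MCT lung. Of 5 epithelial markers, 4 were detected in untreated and 5 in MCT lung. Of 3 white blood cell markers 2 were detected in both lungs. The normalized log2 ratios of these 2 went opposite ways, at 0.17 for miR-150-5p and -1.21 for the myeloid miR-223-3p. The other, miR-142-3p, was detected in neither, with means of 82.1 in untreated and 218 in MCT lung. Before correction and scaling, the mean of miR-223-3p was 1194 in untreated and 1262 in MCT lung. Of 2 red blood cell markers, 1 was detected in both lungs. Markers listed for other tissues were also seen: 3 of 5 for heart and skeletal muscle in both lungs, the islet miR-375-3p in both, and the liver miR-122-5p in untreated lung. The call for miR-122-5p was marginal, with 2 of 3 spots above the limit of 116 and a mean of 118. None of 8 brain markers was detected on either array. Their means ran from 83.6 to 110.3 in untreated lung and from 213 to 237 in MCT lung. The sums, 756 and 1790, were not corrected for the background or scale of the arrays and come from probes below the limits. The part of cell makeup in the ratios of the listed miRNAs was not tested.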

How the data were processed

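Total RNA from lung was tailed, labelled with Cy3 and hybridised to single-colour microfluidic chips, per the labels' protocols. The scanner tables deposited by the authors give an intensity per spot, the median density, with no background subtracted, and these were the values used. The authors also deposited a table of processed intensity per probe, with no processing steps stated, which served as an alternative. Each array had 3968 spots, with 3 spots for each of 1141 miRNA probes. The number of arrays limits the precision.

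Spot intensities were corrected with limma 3.58.1 in R 4.3.3 (normexp, offset 50), converted to log2 by the re-analysis from the deposited intensity, quantile-normalized over miRNA spots and averaged over the 3 spots. Steps were tested on simulated data. The members and lists were chosen with earlier results of these data known. Every listed miRNA detected on either array is named with its values. Genes were ordered through RefSeq GRCm38.p6. No coordinates are given, since the labels and headers name no genome build. Alternatives changed the background, normalization, spots, detection limit and threshold. The authors' values were put on a log2 scale with a pseudocount of 50.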

Additional observations from a re-analysis of the deposited data

How the results depend on the processing

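The 6 listed miRNAs detected in untreated lung became 3 with a limit of the empty-spot median plus 3 SD. No share of all miRNAs is given for that limit. The 4 in MCT lung became 14 with the limit from dim miRNA spots, under which 46.0% of all miRNAs were detected there. The count of listed miRNAs past the threshold and higher in MCT lung went from 0 to 1 with the empty-spot median subtracted, with an offset of 16, with centring on the 75th percentile, with a threshold of 1.5-fold and with local background subtracted, and to 2 with no normalization, with centring on the median and with scaling by the 5S probes. The median log2 ratio of the detected, 0.035, became 0.55 with no normalization, 0.34 centred on the median, 0.33 scaled by the 5S probes, -0.034 with the GC trend removed, -0.024 with no detection filter, 0.15 for those detected on both arrays, 0.19 with the limit from dim spots, 0.15 with the local limit and 0.12 with local background subtracted. The local limit and local background were chosen after seeing the data. Except where the limit or the set of miRNAs itself changed, the cause was not tested.

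Over all detected miRNAs, 17 were higher and 9 lower. These became 142 and 0 with no normalization, 98 and 0 centred on the median, 97 and 0 scaled by the 5S probes, 54 and 3 centred on the 75th percentile, 46 and 38 with the empty-spot median subtracted, 23 and 19 with an offset of 16, 8 and 6 with the GC trend removed, 46 and 44 at 1.5-fold, 38 and 36 with local background subtracted, and 20 and 16 from the authors' values. No paired analysis was possible because each group had 1 array and the labels carry no replicate numbers. Signal over background limits the rest: 35 of the 39 miRNAs were not above the limit on both arrays and gave no ratio that can be read.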

Other observations

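One spot of miR-337-3p, an Rtl1 antisense miRNA, read 463 in untreated lung beside 88.3 and 91.6 for its other spots, and its 3 spots in MCT lung read 231, 220 and 219. The standard deviation over the pixels of the bright spot was 33.5, against 4.77 and 8.22 in the others, not scaled to the brightness of each spot. The brightest of the 8 spots around it read 986. Why this spot was bright was not tested. The miRNA did not count as detected, since 1 spot of 3 passed.

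The authors' processed intensity was under 1 for 15 of the 39 miRNAs in untreated lung and for 19 in MCT lung. Of all 1141 miRNAs, it was under 1 for 278 in untreated lung and for 340 in MCT lung. For miR-434-3p it was 0 in untreated lung and 46.1 in MCT lung, while the scanner spots lay near their local background on both arrays, at 225 on the MCT array.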
